A study of Mus musculus with 4 samples.

Results

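Ptprz1 encodes a receptor-type tyrosine phosphatase, and it is described here with the genes of its secreted ligands pleiotrophin (Ptn) and midkine (Mdk) and of other receptors of these ligands (Sdc3, Alk and Lrp1). The 6 genes were taken by name from the platform annotation, and are 6 of 19938 genes that have a probe set of their own on the array. Ptprz1 was picked because earlier work on these values had shown it among the larger decreases, so the values of the 6 genes in this contrast are given as a description, without p-values. Each of the 6 is read by 1 probe set. The samples are skin of female mouse embryos at E17.5 (embryonic day) on 4 Affymetrix arrays, with RNA of 2 mice pooled on each. Both control arrays hold either wild type mice or mice with TRE-Ovol2-Flag alone, a tetracycline-responsive transgene that has no driver in them. Both Ovol2 BT arrays hold TRE-Ovol2-Flag;K5-tTA mice, in which the transactivator that switches the transgene on is made from a keratin 5 promoter, that is, in basal cells of the epidermis. By the labels the control mice are CB6F1 and the Ovol2 BT mice FVB/N, although both are described as littermates, so strain and transgene cannot be told apart. The study's question is the effect of excess Ovol2, a zinc finger transcription factor of epithelia, on epidermal differentiation.

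Pleiotrophin and midkine are small heparin-binding growth factors with closely related folds. They bind the chondroitin sulfate chains and the protein core of PTPRZ1, which lowers the activity of the phosphatase, so that phosphorylation of its substrates, among them beta-catenin and the kinase FYN, rises. Syndecan 3 binds the same ligands through heparan sulfate chains, LRP1 is a large endocytic receptor of the LDL receptor family that binds midkine, and ALK is a receptor tyrosine kinase linked to both ligands. PTPRZ1 is best known from glial cells of the nervous system, whereas pleiotrophin and midkine are made widely by mesenchyme and epithelium of embryos.

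The promoter windows of Ptprz1 and Ptn are shown as those of the phosphatase, the gene with the large difference below, and of a ligand, which was not called. Each window holds the 250 bases before the start site listed in RefSeq for build GRCm38.p6, written 5′ to 3′ on the strand of the gene, with every CG dinucleotide in capitals. That of Ptprz1 is at chr6:22875252-22875501 on the plus strand, and that of Ptn at chr6:36810180-36810429 on the minus strand.
Ptprz1: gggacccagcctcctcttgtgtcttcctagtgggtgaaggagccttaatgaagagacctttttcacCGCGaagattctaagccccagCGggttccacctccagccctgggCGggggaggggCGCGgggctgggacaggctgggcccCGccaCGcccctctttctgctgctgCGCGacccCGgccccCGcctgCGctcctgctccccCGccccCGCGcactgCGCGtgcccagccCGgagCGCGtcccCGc
Ptn: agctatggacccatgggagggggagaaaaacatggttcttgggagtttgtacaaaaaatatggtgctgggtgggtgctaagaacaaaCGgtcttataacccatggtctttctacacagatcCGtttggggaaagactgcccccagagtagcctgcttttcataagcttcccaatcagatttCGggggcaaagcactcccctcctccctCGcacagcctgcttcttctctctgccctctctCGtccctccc
The Ptprz1 window is rich in CG dinucleotides, with 22 of them and 71.6% G or C, while the Ptn window has 5 and 52.0%. Of 32851 windows of this length in the table, the median held 6 CG dinucleotides, and 14.8% held at least as many as Ptprz1. The windows of Sdc3, Alk and Lrp1 held 32, 23 and 13. The letters CCGTTA, known as a core recognition sequence of Ovol proteins, were searched on both strands and were in none of these 5 windows; 2.18% of all windows held them. The probe values do not bear on binding, and the match says only which letters these windows hold.

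Ptprz1 was several-fold lower in skin with Ovol2 overexpression, while none of the genes for its ligands or their other receptors had a difference of comparable size. Ptprz1 differed by -2.45 on the log2(intensity + 16) scale (Ovol2 BT minus control). Ptn, Sdc3 and Alk had somewhat higher values in Ovol2 BT, by 0.43, 0.17 and 0.16, and Mdk and Lrp1 overlapped between the groups. Around them, 0 of 118 tested genes for further receptors, binding partners, substrates, related phosphatases and sulfated sugar chains passed the test, where 0.963% of all genes did.

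The deposited values are linear intensities with no detection calls, and their median was 123 to 132 on the 4 arrays. Ovol2 itself had intensities of 360 and 161 in control replicates 1 and 2 and of 4367 and 3893 in Ovol2 BT replicates 1 and 2 (limma adjusted p = 0.00311). The epidermal markers Krt5 (3790.1 to 9485), Krt14 (2170.3 to 6529), Krt10 (8733 to 10654) and Lor (7428 to 10487) were bright on all 4 arrays. Of 14953 genes tested with limma, 144 passed an adjusted p of 0.05 (Benjamini-Hochberg over all genes; such genes are called below), 92 higher and 52 lower. With each array centred on the median of cell junction genes (desmosomes and adherens junctions), an alternative scaling that moved the median difference of all genes from -0.04 to 0.25, 995 were higher and 78 lower (92.7% higher against 63.9%). With 2 arrays a group, every value below is imprecise. The labels call the arrays biological replicates, and an exact permutation test of 2 against 2 arrays could not go below p = 0.333.

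Ptprz1 had an intensity of 255 in control replicate 1 and 287 in control replicate 2. In Ovol2 BT it was 41.7 in replicate 1 and 31.4 in replicate 2. Both controls thus lay far above both Ovol2 BT arrays, and replicates of a group lay close together. On the log2 scale the mean was 8.16 ± 0.12 (SD, n = 2) in controls and 5.71 ± 0.20 (SD, n = 2) in Ovol2 BT. The difference of -2.45 (SE 0.17) is 5.48-fold on this scale, and the 4 pairs of an Ovol2 BT and a control array gave -2.68 to -2.23. Only 3 of the 14953 genes tested had a more negative difference. The ratio of the mean intensities, without the added 16, was 7.41-fold. The size of the fall depends on the pseudocount, at 7.30-fold with 1 and 3.33-fold with 64, because the Ovol2 BT values are dim. They lie below the lower quartile of all deposited values on their arrays, 43.5 and 45.3, so how much Ptprz1 signal is left there cannot be read from these data. In whole skin, fewer cells that express a gene and less RNA of it per cell cannot be told apart.

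**Figure D1:**
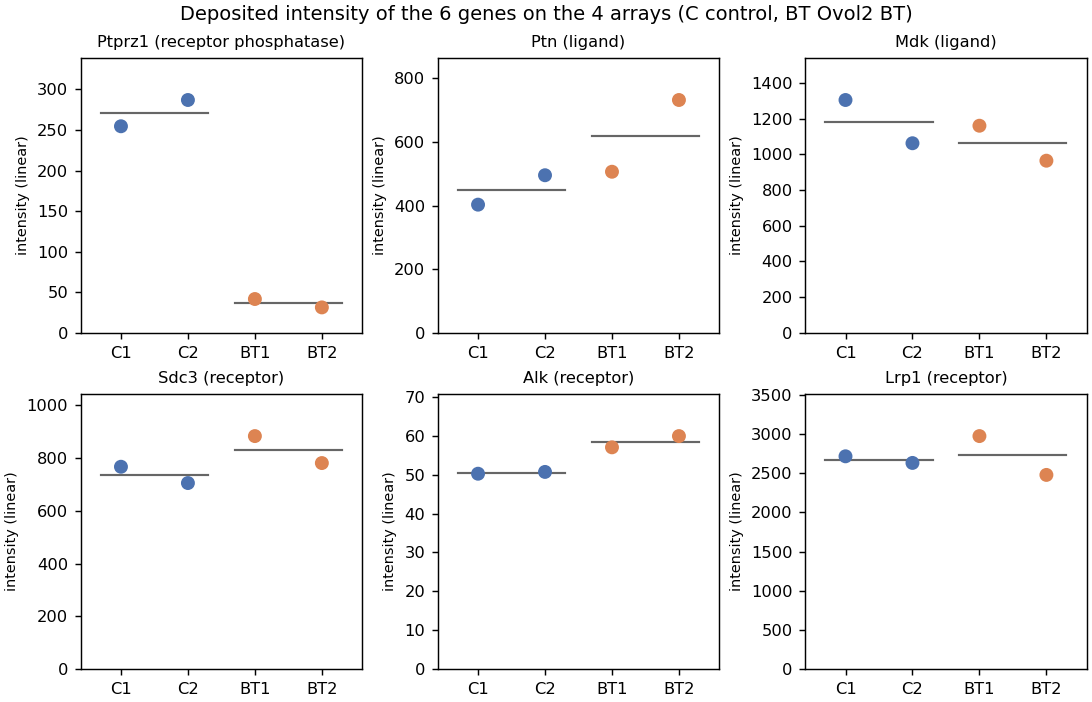
Deposited linear intensity (y axes, each from 0 and of its own range) of the 6 genes on control arrays C1 and C2 (blue) and Ovol2 BT arrays BT1 and BT2 (orange), with a line at each group mean. Ptprz1 is at 255 and 287 in the controls and at 41.7 and 31.4 in Ovol2 BT, while the groups of the other 5 genes lie near each other.

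Among the ligands, Ptn, the gene of pleiotrophin, had intensities of 403 and 496 in controls and 507 and 732 in Ovol2 BT. The groups did not overlap, but the lower Ovol2 BT array was close to the higher control. The log2 difference was 0.43 (SE 0.25, 95% interval -0.13 to 0.99), the size resting mainly on Ovol2 BT replicate 2: it was 0.17 without that array and 0.69 without Ovol2 BT replicate 1. Mdk, the gene of midkine, had 1305 and 1062 in controls and 1160.5 and 965 in Ovol2 BT. Its groups overlapped, with a log2 difference of -0.15 (SE 0.21, 95% interval -0.64 to 0.33). Its sign turned with arrays centred on cell junction genes (0.14), and it was at -0.01 without control replicate 1. A difference of 2-fold in either direction lies outside the interval of Mdk, while that of Ptn reaches close to a doubling.

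Among the other receptors, Sdc3, which encodes a heparan sulfate proteoglycan of the cell surface, had intensities of 767 and 705 in controls and 883 and 781 in Ovol2 BT. The Ovol2 BT arrays lay just above the controls, and the log2 difference of 0.17 (SE 0.21) was smaller than its error. It was 0.46 with arrays centred on cell junction genes. Lrp1, the endocytic receptor, had 2718 and 2634 in controls and 2977 and 2480.3 in Ovol2 BT. The controls lay between the Ovol2 BT arrays, with a log2 difference of 0.02 (SE 0.18, 95% interval -0.39 to 0.43). That value was -0.11 without Ovol2 BT replicate 1, -0.00 without control replicate 2 and 0.31 under the junction centring. Alk, the receptor kinase, was dim on every array, with 50.3 and 50.7 in controls and 57.1 and 60.0 in Ovol2 BT. Its mean level put it in the lowest 25% of genes, which were not tested, and its log2 difference without that filter was 0.16 (SE 0.15). Its groups did not overlap, but were only a few intensity units apart at a level where no detection call is given.

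Of the 6 genes, 5 passed the filter on low values and 1, Ptprz1, was called by limma at an adjusted p under 0.05. Over all genes 0.963% were called, and 0.348% were called lower. Since Ptprz1 was chosen from this contrast, nothing is read from that count. The groups of 4 of the 6 genes did not overlap, 3 higher and 1 lower in Ovol2 BT. Such separation was common, at 42.0% of all genes with a value (23.4% higher and 18.6% lower), so it says little about Ptn, Sdc3 and Alk.

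**Figure D2:**
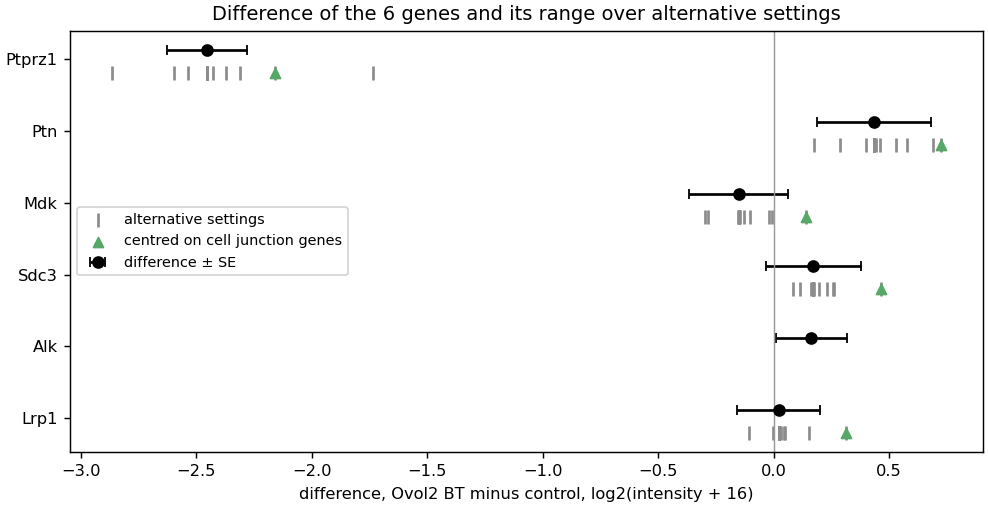
Log2 difference (x axis, Ovol2 BT minus control, log2(intensity + 16)) of each gene with its SE (black), and its value under each alternative setting (grey ticks), with the centring on cell junction genes as green triangles; Alk has no alternative because the filter left it out. Ptprz1 stays between -2.87 and -1.74, Ptn and Sdc3 stay above 0, and Mdk and Lrp1 change sign.

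No other gene of a receptor-type tyrosine phosphatase was called. Of the 19 others with a probe set, 16 were tested, 0 were called, and 1 (Ptprk) was lower at an unadjusted p under 0.05. With 0.963% of all genes called, a count of 0 in a list this short, here and below, says little about its genes. Their log2 differences ran from -0.52 (Ptprk) to 0.25 (Ptprc, the leukocyte antigen CD45), with a median of -0.11 against -0.04 for all genes. Ptprg, the closest relative of Ptprz1 and like it with a carbonic anhydrase-like domain outside the cell, had intensities of 429 and 499 in controls and 417 and 471 in Ovol2 BT. Its groups overlapped, with a log2 difference of -0.06 (SE 0.21, limma adjusted p = 0.931). Ptprk, a phosphatase of cell contacts, had 760 and 809 in controls and 476 and 615 in Ovol2 BT, a difference of -0.52 that was not called (SE 0.22, adjusted p = 0.460). Ptpro (-0.37, adjusted p = 0.491) and Ptprd (-0.37, adjusted p = 0.637) were not called either. The medians of this list were -0.08 and -0.10 under median centring and quantile normalization, and 0.18 under the junction centring, where the median of all genes was 0.25.

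**Figure D3:**
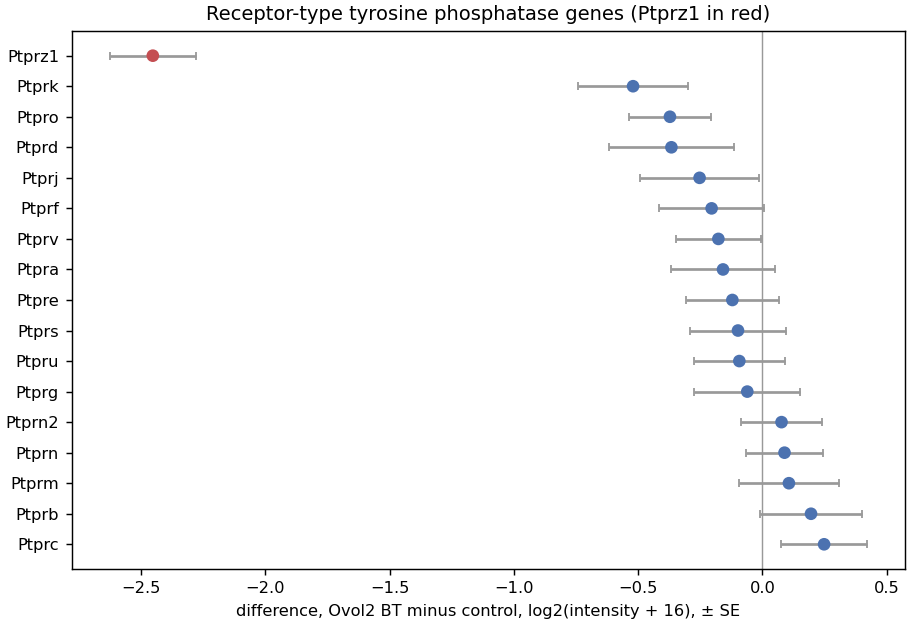
Log2 difference (x axis, Ovol2 BT minus control, log2(intensity + 16)) with SE for Ptprz1 (red) and the 16 other receptor-type tyrosine phosphatase genes tested (blue). Ptprz1 is at -2.45, and the others lie between -0.52 and 0.25.

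No further receptor gene of pleiotrophin and midkine was called. Of 15 genes on this list, which holds syndecans, integrins, Nrp1, Ncl, Notch2 and the ALK relative Ltk, 0 were called, 10 had lower and 5 higher values, and the median was -0.14. Sdc1, the main syndecan of keratinocytes, had intensities of 2039 and 1725 in controls and 1430.2 and 1235 in Ovol2 BT. Its groups did not overlap, but the difference of -0.49 (SE 0.20, limma adjusted p = 0.443) did not pass. Sdc4 was at -0.37 (SE 0.21, adjusted p = 0.587) and Sdc2 at -0.02 (SE 0.23, adjusted p = 0.979), so the 4 syndecans had values on both sides of 0, with Sdc3 above it. The glypican Gpc2, a midkine-binding proteoglycan, was at 0.24 (adjusted p = 0.662). The genes of the ALK-activating cytokines, Alkal1 and Alkal2, were at 0.08 (adjusted p = 0.888) and 0.12 (adjusted p = 0.828). In the list of syndecans and glypicans other than Sdc3, 0 of 9 were called and the median was -0.11. Among other members of the LDL receptor family, 0 of 12 were called. The largest values there were those of Vldlr, the very low density lipoprotein receptor gene (0.41, SE 0.20, adjusted p = 0.543), Sorl1 (-0.37, adjusted p = 0.582) and Lrp4, a receptor of Wnt inhibitors (-0.36, adjusted p = 0.587).

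Proteins that bind or are acted on by PTPRZ1 were likewise without a call. Of 14 genes for binding partners, 9 were tested and 0 called; Cntn1, Cntn3, Cntn6, Nfasc and Tnr lay under the filter. Nrcam, a neural cell adhesion molecule gene, had 84.7 and 112 in controls and 68.0 and 54.9 in Ovol2 BT, and its difference of -0.56 (SE 0.17, adjusted p = 0.283) did not pass. The contactin genes Cntn2 and Cntn5 were at 0.36 (SE 0.16, adjusted p = 0.487) and 0.28 (SE 0.16, adjusted p = 0.591). Both were called higher under the junction centring, at 0.66 (adjusted p = 0.0393) and 0.57 (adjusted p = 0.0476). Of partners named here after their values were seen, the matrix protein gene Tnc was at 0.30 (adjusted p = 0.644), Ncam1 at -0.11 (adjusted p = 0.842) and the cytokine gene Il34 at -0.27 (adjusted p = 0.672). Among 13 genes for substrates and effectors, 0 were called and the median was -0.02. Ctnnb1, the gene of beta-catenin, had 3757 and 4361 in controls and 3144 and 3493 in Ovol2 BT. Its groups did not overlap, with a difference of -0.29 (SE 0.17, adjusted p = 0.594). Arhgap35, the gene of a GTPase-activating protein, was at -0.26 (adjusted p = 0.698) and Magi3, a scaffold at cell contacts, at -0.15 (adjusted p = 0.832). These are RNA levels, and phosphorylation of the substrates was not measured.

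The sugar chains through which the ligands bind are made by enzymes in 2 lists. Of 22 genes of chondroitin and dermatan sulfate synthesis, 0 were called, 15 had lower values, and the median was -0.13. Chst3, a chondroitin sulfotransferase gene, was at -0.39 (SE 0.17, adjusted p = 0.492), Csgalnact1, which starts the chain, at -0.50 (SE 0.27, adjusted p = 0.573) and the xylose kinase gene Fam20b at -0.32 (adjusted p = 0.604). Of 19 tested genes of heparan sulfate synthesis and editing, 0 were called while 16 had lower values, with a median of -0.24 against -0.04 for all genes. Ndst3, a sulfotransferase gene of heparan sulfate, had 359 and 590.3 in controls and 232 and 229 in Ovol2 BT. Both Ovol2 BT arrays were lower, but the controls lay far apart, and the difference of -0.95 (SE 0.26, adjusted p = 0.207) did not pass. It was called without control replicate 1 (-1.30, adjusted p = 0.00800) and with the replicate number as a block (adjusted p = 0.0167). Extl1 was at -0.62 (SE 0.25, adjusted p = 0.439), and called lower with the replicate block (adjusted p = 0.0481). Hs2st1, another sulfotransferase gene, was at -0.49 (SE 0.23, adjusted p = 0.513).

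Among other proteoglycans that carry chondroitin or dermatan sulfate, 0 of 7 tested genes were called. Acan, the gene of aggrecan, had 102 and 95.3 in controls and 56.2 and 58.5 in Ovol2 BT. Both groups were tight and apart, at a difference of -0.64 (SE 0.14, adjusted p = 0.0940), the smallest adjusted p of the 118 genes. It was called lower with the replicate block (adjusted p = 0.0436). Bgn, the gene of the matrix proteoglycan biglycan, was at 0.13 (adjusted p = 0.763) and Cspg4 at -0.18 (adjusted p = 0.797). Over the 10 lists together, 130 genes had a value and 118 were tested. At an unadjusted p under 0.05, 6 of them were lower (5.08%) and 0 higher. Of all genes tested 10.4% passed that level, 5.24% lower and 5.11% higher. Lower values made up 66.9% of the 118 genes and 55.6% of all genes, and the median difference was -0.11 against -0.04.

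**Figure D4:**
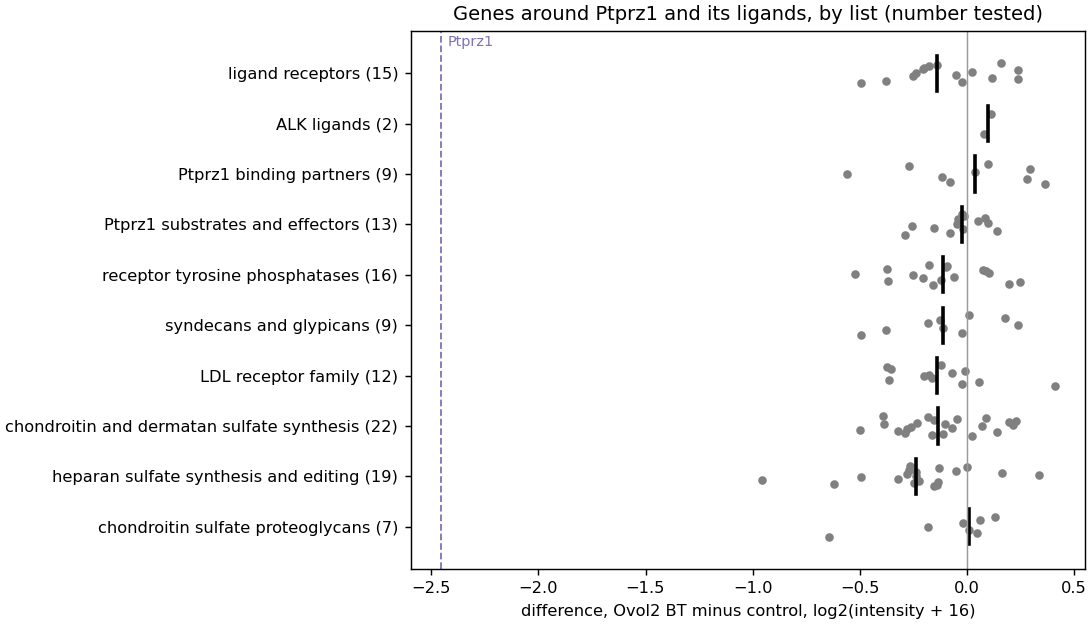
Log2 difference (x axis, Ovol2 BT minus control, log2(intensity + 16)) of each tested gene (grey points, none called by limma at an adjusted p under 0.05) in the 10 lists, with the list's median as a black bar and Ptprz1 as a dashed line. The genes lie between -0.95 and 0.41, and Ptprz1 at -2.45.

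The genes whose 4 array values ran most like those of Ptprz1 were Krt15, Gadl1, Aqp3, Serpinb10, Bnc1, Paqr3, Lhx2 and Tgm3. Likeness was the Euclidean distance between log2 levels centred on each gene's mean over the 4 arrays. It was computed for 14952 other genes, from which predicted models and clones were then left out. With 2 groups of 2 arrays it mostly reflects the size of the group difference. These 8 genes lay at distances of 0.26 to 0.73. Nearest was Krt15, a keratin of basal and follicle stem cells, with 3697 and 3399 in controls and 806 and 631 in Ovol2 BT. Gadl1, a decarboxylase gene, had 233 and 234 in controls and 30.4 and 33.7 in Ovol2 BT. Aqp3, a channel for water and glycerol in keratinocytes, had 984 and 827 against 184 and 138. In all 3, as in Ptprz1, the Ovol2 BT arrays lay far below the controls. The others were the serpin gene Serpinb10, the basonuclin gene Bnc1, Paqr3, the follicle progenitor factor gene Lhx2 and the transglutaminase gene Tgm3, with log2 differences of -2.49, -2.07, -1.81, -1.83 and -1.89.

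Some markers of basal keratinocytes, hair follicle and melanocytes were called lower in Ovol2 BT, and their part in the difference of Ptprz1 was not tested. In the basal keratinocyte list 3 of 10 genes were called lower (Krt15, Krt14 and Krt5) and 9 had lower values, with a median of -0.31 that was -0.02 under the junction centring. Its summed intensity was 24725 to 27131 in controls and 12683 to 14870.2 in Ovol2 BT. Most of that sum came from Krt5, Krt14 and Krt15 on every array. The genes of this list that were not called had differences from -0.77 (Cdh3) to 0.24 (Itgb4). In the hair follicle list 3 of 9 tested genes were called lower (Lhx2, Msx2 and Edar), with summed intensities of 10486 to 10646 against 7916 to 8893. Krt17 was the brightest gene in these sums on every array, at 4623 and 4068 in controls and 5209 and 4577 in Ovol2 BT. The tested genes of this list that were not called had differences from -1.03 (Lef1) to 0.17 (Krt17). The Schwann cell and glia list had 0 of 7 tested genes called, 5 with lower values and a median of -0.24. Its sums were 3250.3 to 3689 in controls and 3058 to 3129 in Ovol2 BT, and Cdh19, under the filter, was its dimmest gene, down to an intensity of 1.23. The nerve list had 0 of 6 tested genes called and a median of 0.09. The melanocyte list had 1 of 10 called lower, Tyr, and a median of -0.40, with sums of 5174 to 5773 against 3673 to 4086. In the dermal papilla list all 10 genes had lower values, 0 were called and 6 were lower at an unadjusted p under 0.05 (median -0.50). In the suprabasal list 1 of 8 was called lower, Tgm3 (median -0.20).

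Fibroblast markers, in contrast, had a median of 0.03 with 0 of 10 called, and those of endothelium, muscle and immune cells had medians of 0.23, 0.28 and 0.25 with 0 called. Adipocyte markers were higher, with 5 of 10 called and a median of 1.53. Plin4, Plin1, Lep and Adipoq were among the 5. The summed intensity of this list was 6156 to 7827 in controls and 22145 to 22298 in Ovol2 BT. The control arrays lay far apart in some of these genes, with Adipoq at 1076 and 409 against 3568 and 3708 in Ovol2 BT. In the 12 marker lists no gene was below an intensity of 16 on every array. The summed intensity of the fibroblast list, whose cells are a known source of pleiotrophin, was 36676 to 37465 in controls and 37346 to 37726 in Ovol2 BT.

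**Figure D5:**
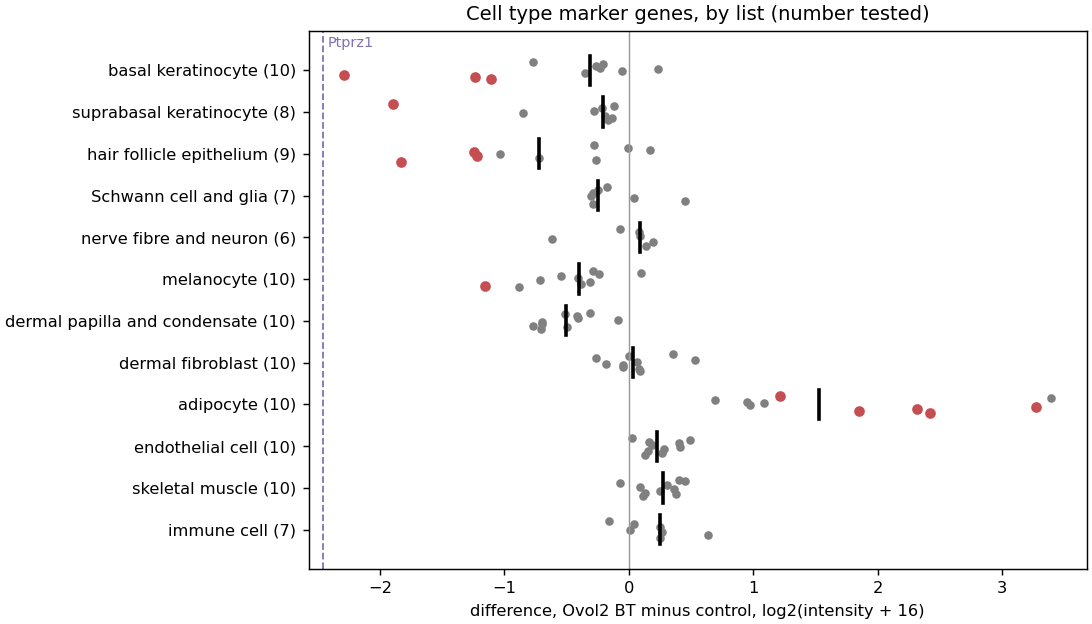
Log2 difference (x axis, Ovol2 BT minus control, log2(intensity + 16)) of each tested marker gene in 12 cell type lists, with genes called by limma at an adjusted p under 0.05 in red, list medians as black bars and Ptprz1 as a dashed line. Medians run from -0.72 (hair follicle) to 1.53 (adipocyte). The glia, nerve, dermal papilla, fibroblast, endothelium, muscle and immune cell lists have none called.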

How the data were processed

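Total RNA of 4 skin samples (2 control, 2 Ovol2 BT) was amplified from random primers and hybridised to Affymetrix arrays, per the labels' protocols. The authors deposited linear intensities per probe set, for which the submitters' processing notes name PLIER 2.0 and Affymetrix Expression Console 1.1.1. A genome build and the handling of background and array scale are not given in these sources. Groups and replicate numbers come from the sample titles.

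Of 35557 probe sets, 21789 name 1 gene, 1621 several and 12147 none by the platform annotation; 21698 of the first kind matched RefSeq (GRCm38.p6) by Entrez ID, with 0 symbols changed. Genes with several probe sets were represented by that of highest mean. Values were analysed as log2(intensity + 16) without further normalization, so fold changes understate those of dim genes. A filter on the mean log2 level removed the lowest 25% (4985 genes) and left 14953. The group difference was tested two-sided in R 4.3.3 with limma 3.58.1, using lmFit and eBayes with a variance trend. Calls are at a Benjamini-Hochberg adjusted p under 0.05 over all tested genes. The script was tested on simulated data, where it called 97.3% of 4-fold, 33.2% of 2-fold and 2.2% of 1.5-fold changes. The simulated arrays were independent, with normal noise and gene variances drawn from the model that limma fitted to these data. Recovery on the real arrays may differ from these rates. A gene that was not called may therefore still differ by 2-fold, and by more where the arrays of a group lay far apart. Python 3.11.15, pandas 2.3.3 and matplotlib 3.10.9 were used for summaries and plots.

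The 6 genes and all gene lists were chosen with earlier results of these data known. Genes named are the 6, Ovol2 and 4 epidermal markers, Ptprg, the syndecans, and up to 3 genes of smallest p per pathway list. Also named are up to 4 called genes per marker list, and the 8 genes most like Ptprz1 other than predicted models and clones. Tnc, Ncam1, Il34, Ptprc, Hs3st2, Cdh19, Cdh3, Itgb4, Krt17 and Lef1 were added after their values were seen. Alternatives were other pseudocounts, filters, normalizations, variance trends, the mean of probe sets, leaving out each array, a replicate block and a threshold of 0.10.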

Additional observations from a re-analysis of the deposited data

How the results depend on the processing

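Ptprz1 was the only one of the 6 genes called in every alternative that kept it among the genes tested, with one-array-left-out differences of -2.60 to -2.31. Since Ptprz1 was chosen from the values of these same arrays, nothing is read from those calls. With the lowest 50% of genes left out it was not tested, and 0 of the 6 were called. Over all genes, 144 calls became 1073 with arrays centred on cell junction genes and 671 with the replicate number as a block, and 206 to 366 with 1 array left out, where the lone array is assumed to vary like the others. Calls among the pathway genes went from 0 to 3 with the junction centring (Cntn2, Cntn5 and Hs3st2, all higher), to 3 with the replicate block (Acan, Extl1 and Ndst3, all lower), to 0 to 1 with 1 array left out, and to 1 (Acan) at an adjusted p under 0.10. The genes used for the junction centring mostly had lower values in Ovol2 BT themselves (16 of 17 tested, 0 called, median -0.24). Centring on them therefore added a single constant to all log2 differences, and the median over all genes went from -0.04 to 0.25. The higher values of Mdk, Cntn2 and Cntn5 under this setting reflect that constant. What caused the other shifts was not tested. The labels do not say that a replicate number marks a shared litter or batch; across genes, the deviations of arrays with the same number had a correlation of 0.41. The block changed no call of the 6 genes. Among 778 values of the 54 named genes under alternatives, 0 called differences changed sign, 5 lost a call (Krt5, Krt14 and Tyr without a variance trend, Edar under quantile normalization and without Ovol2 BT replicate 2) and 6 gained one; 22 differences that were not called changed sign. Dim signal limits what can be said of Alk and of Ptprz1 in Ovol2 BT.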
